A study of Mus musculus with 2 samples.

Results

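The 10 activity-induced immediate early genes Fos, Fosb, Junb, Egr1, Egr3, Egr4, Arc, Npas4, Nr4a1 and Vgf were followed through 2 single-nucleus RNA libraries of mouse hippocampus. They were chosen by symbol, and each matched 1 of the 55357 genes in both tables. The Syn-cre-labelled library, whose genotype label reads Bcas2 knockdown, came from Bcas2F/F mice (Bcas2 with loxP sites on either side) that had received AAV2/9-Syn-cre, an adeno-associated virus in which the neuronal synapsin promoter drives Cre. The vehicle library came from Bcas2F/F mice given AAV-vehicle, although its genotype label reads WT. The sources used here do not give age, strain or the number of mice per library. Each group is 1 library, so no difference between the groups could be tested, and every interval below covers counting error only.

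Immediate early genes are transcribed within minutes of synaptic activity, without new protein synthesis, when calcium entry leads to phosphorylation of CREB and of serum response factor partners. In the hippocampus they mark neurons that fired recently, and the dentate gyrus is known for sparse activation of its granule cells. Fos, Fosb and Junb are AP-1 subunits, Egr1, Egr3 and Egr4 are zinc finger factors, Npas4 is a neuronal factor that responds to calcium, and Nr4a1 is an orphan nuclear receptor. Arc acts in AMPA receptor endocytosis, and Vgf encodes a secreted neuropeptide precursor.

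RefSeq promoter entries (build GRCm38.p6) were found for 6 of the 10 genes, and they are shown because TGACG, the core of the cAMP response element that CREB binds, was in each of them. The windows are the 250 bases before the start of Fos (chr12:85473640-85473889, + strand), Fosb (chr7:19310046-19310295, - strand), Junb (chr8:84978749-84978998, - strand), Egr4 (chr6:85513590-85513839, - strand), Npas4 (chr19:4989972-4990221, - strand) and Nr4a1 (chr15:101266596-101266845, + strand). Capitals mark TGACG or its reverse complement CGTCA.
Fos: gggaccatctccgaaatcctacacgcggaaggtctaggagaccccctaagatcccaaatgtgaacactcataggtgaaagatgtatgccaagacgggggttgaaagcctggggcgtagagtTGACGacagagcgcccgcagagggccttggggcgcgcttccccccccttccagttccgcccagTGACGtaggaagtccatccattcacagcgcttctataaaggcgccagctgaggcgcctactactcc
Fosb: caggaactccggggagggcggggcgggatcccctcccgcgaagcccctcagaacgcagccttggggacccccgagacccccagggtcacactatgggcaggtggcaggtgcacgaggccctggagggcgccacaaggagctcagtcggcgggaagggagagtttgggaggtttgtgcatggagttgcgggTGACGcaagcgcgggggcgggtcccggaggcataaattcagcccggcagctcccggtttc
Junb: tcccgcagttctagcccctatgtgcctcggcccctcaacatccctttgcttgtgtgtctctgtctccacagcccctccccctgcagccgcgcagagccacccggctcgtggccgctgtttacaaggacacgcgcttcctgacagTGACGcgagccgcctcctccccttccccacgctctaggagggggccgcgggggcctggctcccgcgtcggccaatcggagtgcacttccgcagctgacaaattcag
Egr4: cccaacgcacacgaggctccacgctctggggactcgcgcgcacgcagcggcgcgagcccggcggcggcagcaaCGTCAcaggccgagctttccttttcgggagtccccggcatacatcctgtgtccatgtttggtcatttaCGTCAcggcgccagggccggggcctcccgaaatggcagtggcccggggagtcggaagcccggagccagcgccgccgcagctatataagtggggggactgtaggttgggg
Npas4: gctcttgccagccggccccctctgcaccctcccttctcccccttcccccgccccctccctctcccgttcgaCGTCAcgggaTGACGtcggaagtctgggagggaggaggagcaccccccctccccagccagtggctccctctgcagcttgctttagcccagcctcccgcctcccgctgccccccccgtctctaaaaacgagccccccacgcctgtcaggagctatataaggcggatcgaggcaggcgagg
Nr4a1: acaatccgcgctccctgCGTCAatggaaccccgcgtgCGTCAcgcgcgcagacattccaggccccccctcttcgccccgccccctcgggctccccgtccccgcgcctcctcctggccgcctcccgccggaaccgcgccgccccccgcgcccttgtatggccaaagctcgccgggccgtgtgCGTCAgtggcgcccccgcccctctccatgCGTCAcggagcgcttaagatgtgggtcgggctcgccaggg

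TGACG, searched on both strands, was in 6 of these 6 windows and in 17.8% of 32851 promoter windows of the same length. The median GC content was 68.4% in the 6 windows and 52.4% over all. The full element TGACGTCA was in 0 of the 6 windows and in 1.55% of all, and the CArG box, the serum response factor core, was in 0 of the 6 and in 1.47% of all. The CArG search took only exact matches (CC, 6 bases of A or T, then GG) within the 250 bases. Near matches and sites outside the window were not searched, so 0 matches does not show that these genes lack such sites. A match of letters is a description and not a measured binding site. Egr1, Egr3, Arc and Vgf are named only.

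The Syn-cre-labelled library held 16693 barcodes and 90594923 UMIs, and the vehicle library held 12621 barcodes and 41781481 UMIs. After filters and removal of doublets, 12383 nuclei with a median of 5799 UMIs were kept in the Syn-cre-labelled library and 11196 with a median of 2485 UMIs in the vehicle library. The libraries shared 56 barcodes. Dentate gyrus (DG) granule-like nuclei numbered 2017 in the Syn-cre-labelled library and 541 in the vehicle library, and GABAergic-like nuclei numbered 1965 in the Syn-cre-labelled library and 106 in the vehicle library. Of 12 DG granule markers, 12 were higher in that class than in other nuclei in the Syn-cre-labelled library and 11 in the vehicle library. Among granule-like nuclei Bcas2 itself had 33.9 CPM (counts scaled to 1000000 UMIs of the class) in the Syn-cre-labelled library and 34.2 CPM in the vehicle library, a log2 ratio of -0.02 (interval -0.29 to 0.27), so this readout of the whole transcript did not check the label. The sources used here do not say which part of Bcas2 the loxP sites enclose.

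In DG granule-like nuclei, 9 of the 10 genes were at least 1.5-fold higher in the Syn-cre-labelled library than in the vehicle library, and none was 1.5-fold lower. Of all 13481 genes with 50 or more UMIs in this class, 9.24% were that much higher and 5.67% that much lower. The median log2 ratio was 1.77 over the 10 genes and 0.05 over all genes. In other compared classes 3 of 4 measured genes were that much higher in astrocyte-like nuclei (14.3% of all genes higher, 6.2% lower), 1 of 2 in OPC-like (oligodendrocyte precursor) nuclei (11.5% higher, 6.62% lower), 0 of 1 in microglia-like nuclei (16.8% higher, 11.3% lower), and 0 genes reached 50 UMIs in Cajal-Retzius-like nuclei (15.7% higher, 14.9% lower). Genes under 50 UMIs were left out of these counts. In microglia-like nuclei those left out were higher in the Syn-cre-labelled library, beyond counting error for all but Fosb. Fos there had 31.2 CPM (18 UMIs) in the Syn-cre-labelled library and 3.98 CPM (9 UMIs) in the vehicle library. In Cajal-Retzius-like nuclei they were higher too, beyond counting error for all but Fosb, Egr3 and Nr4a1. Those left out in astrocyte-like and OPC-like nuclei were also higher, beyond counting error for all but Fosb and, in OPC-like nuclei, Npas4. The 12 neuronal marker RNAs were also at least 1.5-fold higher, 12 of 12 in astrocyte-like nuclei (median log2 ratio 2.37), 12 of 12 in microglia-like nuclei (2.68) and 10 of 12 in OPC-like nuclei (1.80), and their part in these ratios was not tested. Within the Syn-cre-labelled library the granule-like level was above the oligodendrocyte-like level beyond counting error for Egr3 only, as given below, and the part of free RNA in the granule-like levels was not tested.

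Fos had 13.03 CPM (173 UMIs) in the Syn-cre-labelled library and 1.44 CPM (6 UMIs) in the vehicle library, a log2 ratio of 3.06 (2.02 to 4.64). Fosb, its close relative, had 5.05 CPM (67 UMIs) in the Syn-cre-labelled library and 1.204 CPM (5 UMIs) in the vehicle library. Junb, the most abundant of the 10 here, had 39.7 CPM in the Syn-cre-labelled library and 21.2 CPM in the vehicle library, a log2 ratio of 0.90 (0.578 to 1.248). Junb therefore had a smaller ratio than Fos beyond counting error. The log2 ratio of Fosb was 1.94 (0.774 to 3.736), and its interval overlapped those of both Fos and Junb.

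Egr4 had 14.8 CPM (197 UMIs) in the Syn-cre-labelled library and 1.93 CPM (8 UMIs) in the vehicle library, and Egr1 had 19.96 CPM in the Syn-cre-labelled library and 6.50 CPM in the vehicle library. Egr3 had 16.5 CPM in the Syn-cre-labelled library and 14.0 CPM in the vehicle library, and its interval of log2 ratios, -0.18 to 0.68, held 0. Egr3 was the exception among the 10 genes, with nearly the same level in both libraries. Npas4 had 8.06 CPM (107 UMIs) in the Syn-cre-labelled library and 0.963 CPM (4 UMIs) in the vehicle library. The Npas4 and Fosb values of the vehicle library rest on 4 and 5 UMIs and their intervals overlap. Nr4a1 had 18.3 CPM in the Syn-cre-labelled library and 4.57 CPM in the vehicle library. Arc had 15.4 CPM in the Syn-cre-labelled library and 5.30 CPM in the vehicle library. Vgf had 14.8 CPM in the Syn-cre-labelled library and 5.06 CPM in the vehicle library. The vehicle values rest on 4 to 88 UMIs per gene. Only Junb and Egr3 had 50 or more there, and the other genes passed that filter through the Syn-cre-labelled library.

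**Figure D1:**
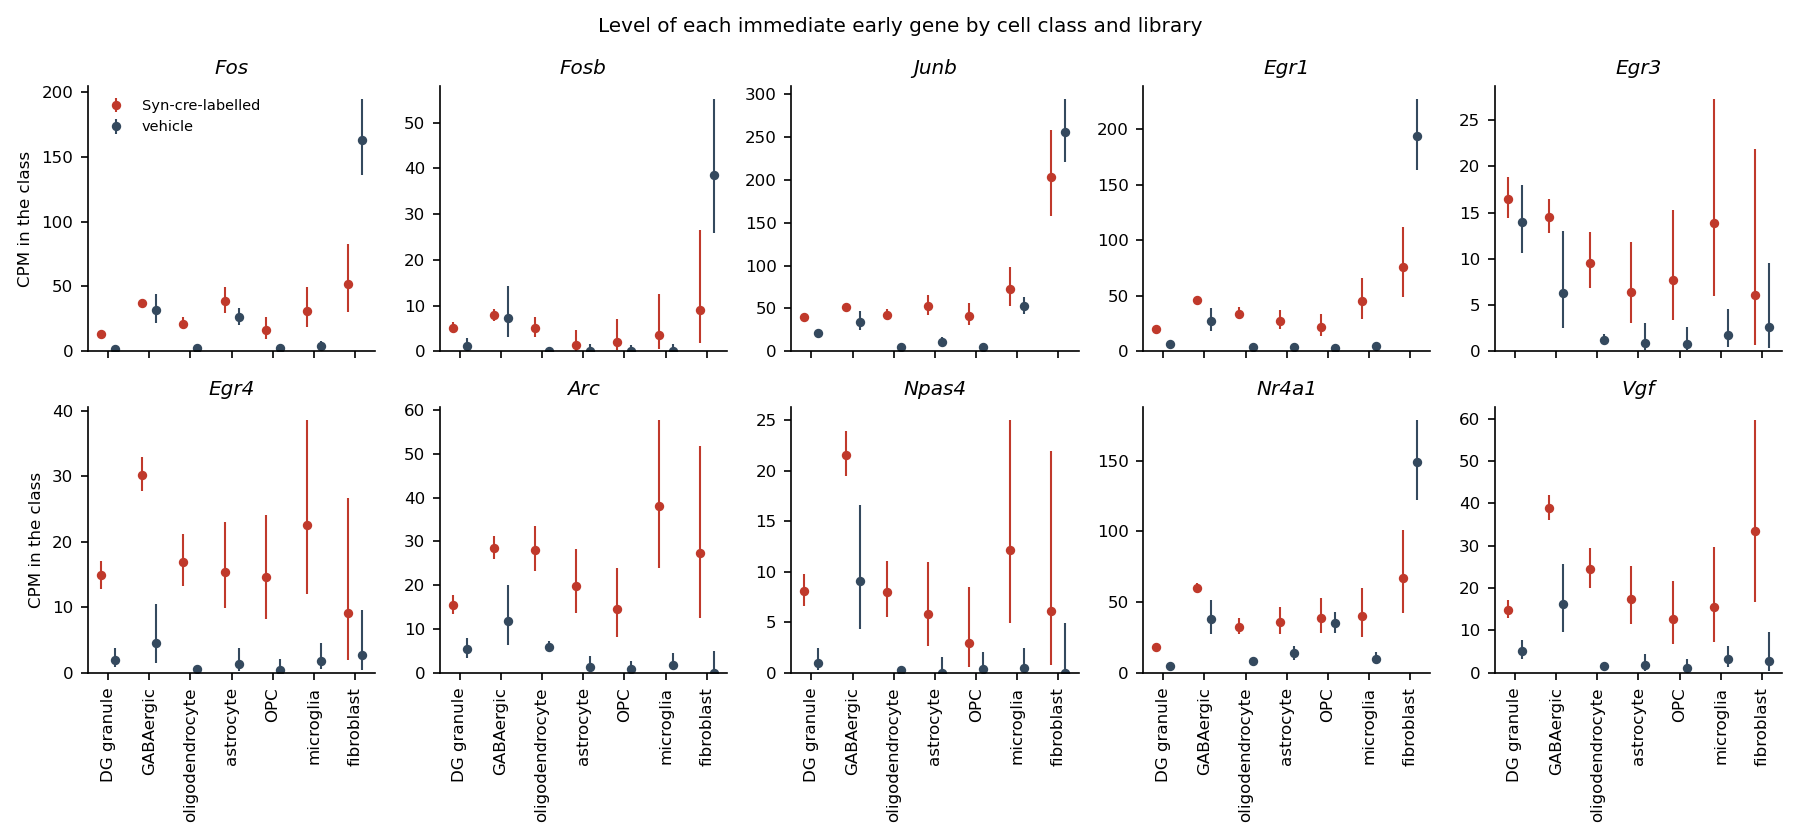
Level of each gene in CPM of the class (vertical axis) by cell class (horizontal axis), with the Syn-cre-labelled library in red, left of the vehicle library in dark blue. Points are class totals and lines are 95% Poisson intervals; in DG granule-like nuclei the red points lie between 5.05 and 39.7 CPM.

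In GABAergic-like nuclei, the inhibitory neurons, 7 of 10 genes were at least 1.5-fold higher in the Syn-cre-labelled library, where 13.7% of 14289 genes were (11.8% were as much lower), and the median log2 ratio was 0.93. Egr4 was furthest apart, with 30.2 CPM in the Syn-cre-labelled library and 4.52 CPM (5 UMIs) in the vehicle library. Fos had 37.5 CPM in the Syn-cre-labelled library and 31.6 CPM in the vehicle library, a log2 ratio of 0.23 (-0.25 to 0.78). The intervals of both Fos and Fosb held 0 in this class. The vehicle side is 106 nuclei. It held 5 (Egr4) to 42 (Nr4a1) UMIs per gene, so all 10 genes passed the filter of 50 UMIs through the Syn-cre-labelled library.

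Male and female nuclei of the Syn-cre-labelled library differed in this class for Fos, Fosb and Npas4. Nuclei carrying Y-linked UMIs and no Xist UMIs had 58.3 CPM of Fos, and nuclei with Xist and no Y-linked UMIs had 20.4 CPM. Fosb stood at 14.3 CPM in male and 1.95 CPM in female nuclei, and Npas4 at 35.6 CPM in male and 10.5 CPM in female nuclei. Fos was close between the sexes among granule-like nuclei, with 13.2 CPM in male and 12.7 CPM in female ones. The sources used here do not say whether each sex was 1 mouse or several. Levels also differed between GABAergic-like clusters 3, 8 and 23 of that library, with Fosb at 11.4, 5.58 and 1.46 CPM. Levels by sex were not compared within these clusters, so a different mix of clusters cannot be told apart from a difference by sex.

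Oligodendrocyte-like nuclei, which are not known to use the neuronal program, had the largest median log2 ratio over genes with 50 or more UMIs. Fewer genes passed that filter in the other glial classes. All 8 genes with 50 or more UMIs were at least 1.5-fold higher in the Syn-cre-labelled library, where 24.9% of 13558 genes were (7.34% were as much lower), and the median log2 ratio was 3.22. Arc had 28.0 CPM in the Syn-cre-labelled library and 5.97 CPM in the vehicle library, and Egr4 had 16.9 CPM in the Syn-cre-labelled library and 0.558 CPM in the vehicle library. All 12 neuronal marker RNAs were also 1.5-fold or more higher in this class, with a median log2 ratio of 2.78. Their part in the result was not tested. Different clusters held most of the class: cluster 4 held 75.1% of it in the Syn-cre-labelled library and 0.848% in the vehicle library, and cluster 21 held 10.4% in the Syn-cre-labelled library and 52.3% in the vehicle library. Within cluster 21 Arc had 27.9 CPM in the Syn-cre-labelled library and 6.63 CPM in the vehicle library.

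Levels of the 10 genes in oligodendrocyte-like nuclei of the Syn-cre-labelled library were 43.9% (Npas4) to 101% (Arc) of those in all named neurons, while the 12 neuronal markers had a median of 16.04%. Named neurons leave out unnamed clusters 0, 2, 6 and 7, where the median of the neuronal markers was 107% to 121% of the named-neuron level. The highest Arc and Nr4a1 levels, given below, were in clusters 0 and 7. In that library Egr3 alone was above its oligodendrocyte-like level in DG granule-like nuclei, Fos, Egr1, Arc, Nr4a1 and Vgf were below it, and 4 genes overlapped. In the vehicle library 6 of the 10 were above, Nr4a1 was below and 3 overlapped. In GABAergic-like nuclei 8 of 10 were above in the Syn-cre-labelled library and 10 of 10 in the vehicle library. In the Syn-cre-labelled library, granule-like nuclei thus stood no higher than a glial class for most of these RNAs, and GABAergic-like nuclei stood higher.

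The 3264 barcodes that the nuclei filter removed from the Syn-cre-labelled library, with a median of 629 UMIs, were richer still. Junb stood at 142 CPM there, Egr1 at 101 CPM and Fos at 60.9 CPM, against 49.5, 38.2 and 25.3 CPM in named neurons. Over the 10 genes these barcodes held 141% (Nr4a1) to 312% (Vgf) of the named neurons' level, and 52.6% for the neuronal markers. The vehicle library had 93 such barcodes with 0 to 4 UMIs of each gene.

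**Figure D2:**
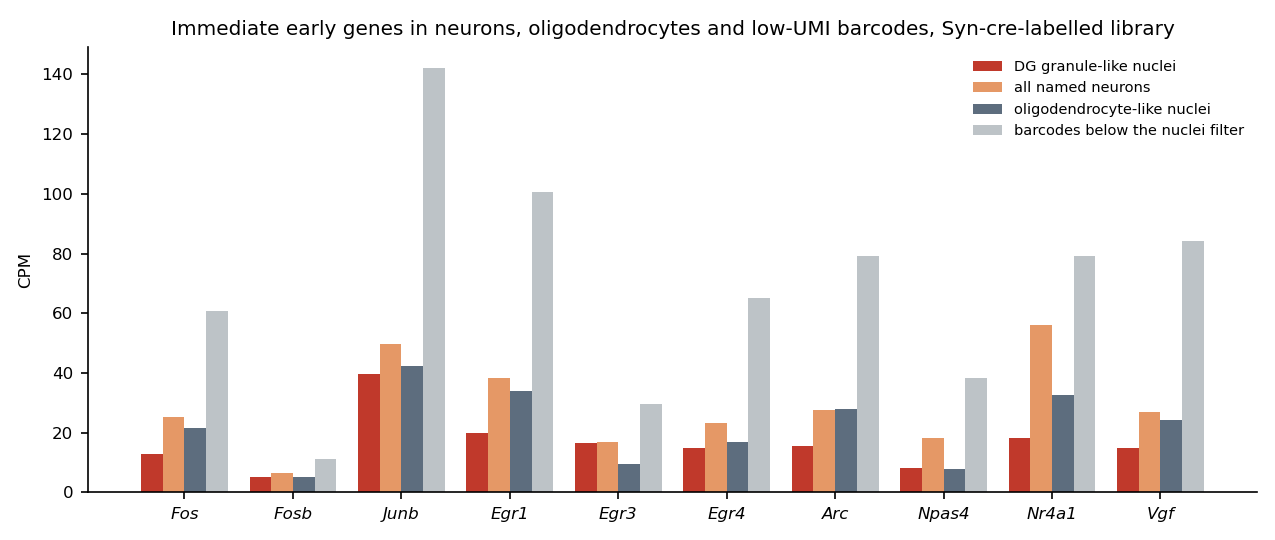
Level in CPM (vertical axis) of the 10 genes in 4 sets of barcodes of the Syn-cre-labelled library. DG granule-like bars are below or close to the oligodendrocyte-like bars for every gene but Egr3. Barcodes below the nuclei filter are highest of the 4 sets for every gene, such as Junb at 142 CPM. Unnamed clusters are not shown.

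**Figure D3:**
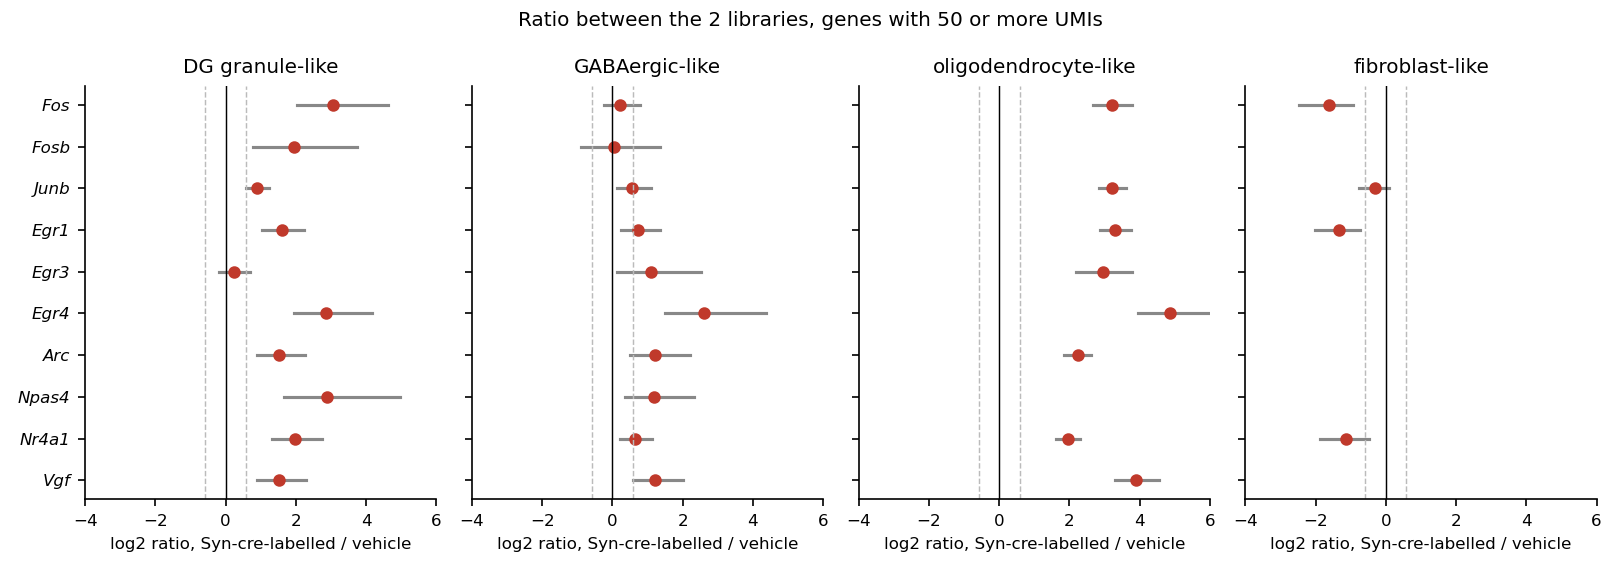
Log2 ratio of the Syn-cre-labelled over the vehicle library (horizontal axis) for each gene with 50 or more UMIs in a class, with 95% counting intervals and dashed lines at 1.5-fold. DG granule-like and oligodendrocyte-like points lie right of 0, with medians of 1.77 and 3.22, and fibroblast-like points lie left of it, with a median of -1.23.

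Among the classes of the Syn-cre-labelled library the order of levels differed by gene. Arc was highest in an unnamed excitatory cluster (cluster 0, nearest to CA1) at 86.5 CPM and in a shallow unnamed cluster (cluster 19) at 81.9 CPM, which overlapped, and DG granule-like nuclei at 15.4 CPM were 14th of 16. Nr4a1 was highest in unnamed cluster 7, at 196 CPM, followed by subiculum or cortex excitatory-like nuclei at 135 CPM, and was lowest in DG granule-like nuclei. In the vehicle library Nr4a1 was likewise lowest in DG granule-like nuclei, at 4.57 CPM, and highest in fibroblast-like nuclei, at 149 CPM.

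Among genes with 50 or more UMIs, fibroblast-like nuclei ran the other way. Of these 4 genes, 3 were at least 1.5-fold lower in the Syn-cre-labelled library, where 15.5% of 4799 genes were (12.5% were as much higher). These 3 genes, Fos, Egr1 and Nr4a1, had 17, 25 and 22 UMIs in that library and passed the filter through the vehicle library. Below 50 UMIs, Fosb was lower beyond counting error. Arc (9 UMIs in the Syn-cre-labelled library and 0 in the vehicle library) and Vgf (11 and 2 UMIs) were higher beyond it. Fos had 51.6 CPM in the Syn-cre-labelled library and 163 CPM in the vehicle library, Egr1 75.9 CPM in the Syn-cre-labelled library and 194 CPM in the vehicle library, and Nr4a1 66.8 CPM in the Syn-cre-labelled library and 149 CPM in the vehicle library. The class held 2 clusters that differed. In cluster 27 (24 nuclei in the Syn-cre-labelled library and 55 in the vehicle library) Junb stood at 200.4 CPM in the Syn-cre-labelled library and 624 CPM in the vehicle library. Egr1 in cluster 27 had 30.1 CPM in the Syn-cre-labelled library and 441 CPM in the vehicle library, and Nr4a1 had 80.2 CPM in the Syn-cre-labelled library and 424 CPM in the vehicle library. The class-wide Egr1 and Nr4a1 ratios thus rest on cluster 27 and its 55 vehicle nuclei. Its 24 nuclei of the Syn-cre-labelled library held 3 UMIs of Egr1 and 8 of Nr4a1. In cluster 15 (81 nuclei in the Syn-cre-labelled library and 162 in the vehicle library) Junb stood at 205 CPM in the Syn-cre-labelled library and 88.8 CPM in the vehicle library, the opposite direction. Egr1 there had 95.8 CPM in the Syn-cre-labelled library and 81.1 CPM in the vehicle library, and Nr4a1 had 60.9 CPM in the Syn-cre-labelled library and 23.2 CPM in the vehicle library, so the point values of both were higher in the Syn-cre-labelled library. Fos was lower there too, with 56.6 CPM in the Syn-cre-labelled library and 98.5 CPM in the vehicle library. The separate intervals of the 2 libraries overlapped for Egr1, Nr4a1 and Fos in cluster 15. Such overlap does not show equal levels, and no interval of the ratio was computed within a cluster.

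The 10 genes met in the same nucleus more often than their separate rates gave. In DG granule-like nuclei of the Syn-cre-labelled library all 45 pairs were seen together more often than expected from each gene's detection and each nucleus's depth. The interval lay above 1 for 24 of them, and the median ratio of observed to expected nuclei was 1.73. Pairs share genes and nuclei, here and in the classes below, so the 45 are not separate results. In this class 3 nuclei held all 10 genes and enter every pair. Fosb with Npas4 had the highest ratio, 4.86, from 8 nuclei against 1.65 expected, and Fos with Fosb had 3.54. Within male nuclei alone the median was 1.75, with 8 of 45 intervals above 1, and within female nuclei 1.63, with 5 of 45. In the 541 vehicle nuclei the median was 1.53, with 3 intervals above 1 and 33 pairs seen together. There 1 nucleus held 8 of the 10 genes and enters most of those pairs, so the vehicle values rest largely on it.

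GABAergic-like nuclei of the Syn-cre-labelled library gave a median pair ratio of 1.68, with 44 of 45 intervals above 1. The median was 1.75 in male nuclei (40 of 45 intervals above 1) and 1.56 in female nuclei (18 of 45). It was 1.66, 1.42 and 1.45 in the 3 clusters of the class, with 44, 10 and 5 intervals above 1. In oligodendrocyte-like nuclei of that library, where 9 of the 10 levels were no lower than in granule-like nuclei beyond counting error, the median was 0.82, with 1 of 45 intervals above 1. Pairs were thus above expectation in both neuronal classes and not in the glial one; the difference between classes was not tested, and the glial nuclei were shallower.

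**Figure D4:**
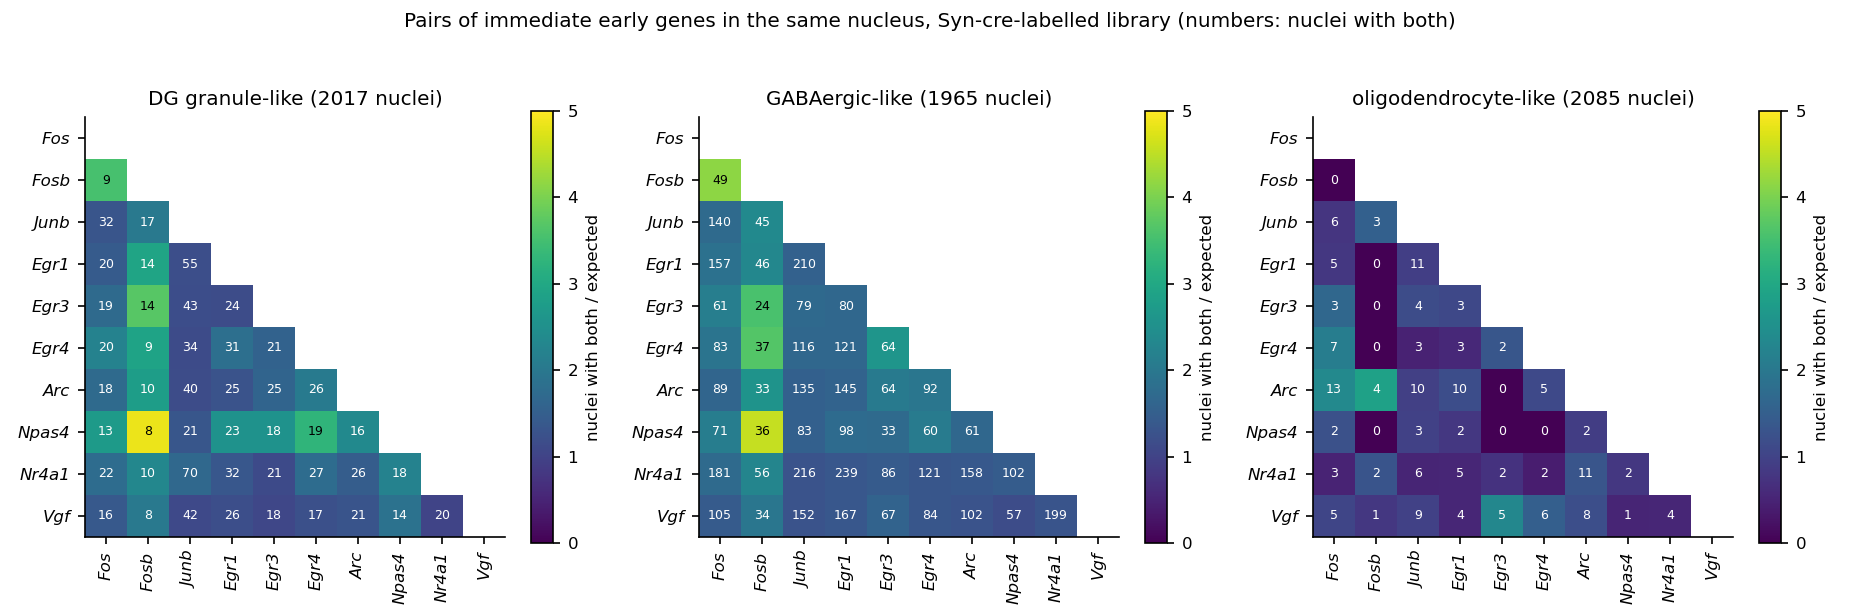
Each square is a pair of genes in the Syn-cre-labelled library, coloured by nuclei with both over the number expected and marked with the number of nuclei with both. DG granule-like and GABAergic-like squares are mostly above 1 (medians 1.73 and 1.68), and oligodendrocyte-like squares are spread around a median of 0.82.

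Some granule-like nuclei held many of the 10 genes. With 3 or more of the 10 genes there were 109 of 2017 DG granule-like nuclei (5.40%, 4.46 to 6.48%, exact binomial) in the Syn-cre-labelled library and 3 of 541 (0.555%, 0.115 to 1.61%) in the vehicle library. All 10 genes were detected together in 3 nuclei of the Syn-cre-labelled library and in 0 of the vehicle library. Nuclei with 4 or more genes numbered 36 in the Syn-cre-labelled library and held 25% of that class's UMIs of the 10 genes, at a median depth of 8521 UMIs. Thinned to 3000 UMIs per nucleus, the shares with 3 or more were 25 of 1959 (1.28%) in the Syn-cre-labelled library and 1 of 530 (0.189%) in the vehicle library. In oligodendrocyte-like nuclei they were 17 of 2085 (0.815%) in the Syn-cre-labelled library, at a shallower depth, and 0 of 7075 in the vehicle library, which allows up to 0.0521%.

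The number of DG granule-like nuclei with 3 or more genes was 0.688 times (0.565 to 0.830) the number expected from the summed levels and 1.08 times that expected from the detection rates. With nuclei thinned to 3000 UMIs the first ratio was 1.498, on the other side of 1, so its side of 1 changes with thinning. With 4 or more genes the second ratio was 1.99 (1.40 to 2.76). In GABAergic-like nuclei 449 of 1965 (22.8%) in the Syn-cre-labelled library and 12 of 106 (11.3%) in the vehicle library had 3 or more genes.

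Genes found with the 10 in granule-like nuclei were ranked by their level in the 109 nuclei with 3 or more against the 905 with none, among 6934 other genes. The first was Nr4a3, a relative of Nr4a1, with 101 CPM against 7.45 CPM, a ratio of 13.4. The long noncoding RNA 1700016P03Rik followed at 10.2 and Nr4a2 at 9.99, then Tiparp at 5.96, Smad7 at 5.55, Btg2 at 5.24, Gadd45g at 4.88, Slc2a1 at 4.83, Homer1 at 4.56 and Gm47423 at 4.56. The median over all 6934 genes was 1.00, and 84 reached 2. In GABAergic-like nuclei 1700016P03Rik had 11.0, Nr4a3 8.27 and Homer1, a synaptic scaffold gene, 3.02, whereas Smad7 had 1.15 (0.887 to 1.51) and Slc2a1, a glucose transporter gene, 1.15 (0.821 to 1.61). In medium spiny-like nuclei Smad7 had 2.51 (1.17 to 5.62) and Slc2a1 3.05 (1.14 to 9.39), and in unnamed cluster 6 they had 1.86 (1.14 to 3.25) and 2.33 (1.31 to 4.66). The median depth was 7817 UMIs in the 109 nuclei and 6059 in the 905.

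**Figure D5:**
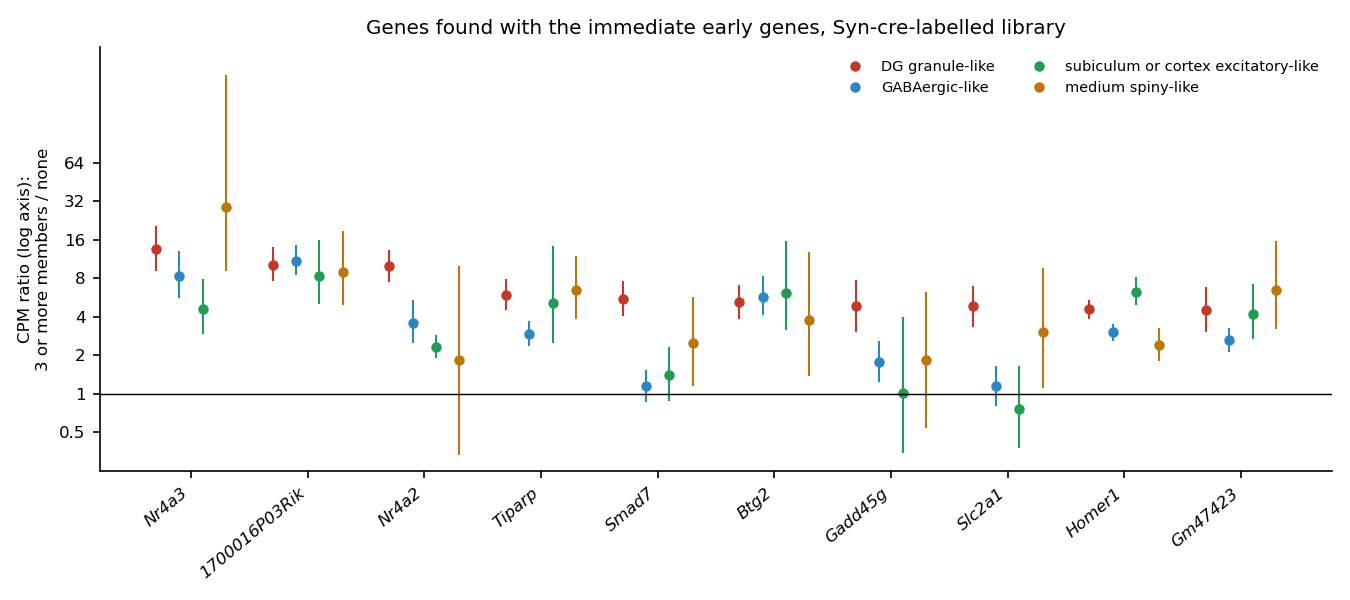
Ratio of CPM in nuclei with 3 or more of the 10 genes over nuclei with none (vertical log axis) for the 10 genes ranked highest in DG granule-like nuclei, in 4 neuronal classes of the Syn-cre-labelled library, with 95% counting intervals. Ratios of 1700016P03Rik lie between 8.36 and 11.0 in all 4 classes, and those of Smad7 and Slc2a1 are 1.15 in GABAergic-like nuclei and 2.51 and 3.05 in medium spiny-like nuclei.

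In GENCODE vM21 (GRCm38) 1700016P03Rik spans chr11:75172560-75177633 on the + strand and contains the genes of miR-212 and miR-132, whose mature forms share a seed (bases 2 to 8, in capitals); they are shown because the host transcript was among the 3 genes most like the members. Mature miRNAs were not measured.
mmu-miR-212-3p: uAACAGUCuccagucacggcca
mmu-miR-132-3p: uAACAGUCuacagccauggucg

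Gm47423 lies antisense inside Ntrk2, the receptor of BDNF, and the sources used here do not say whether counting used strand, so reads of the pair cannot be told apart. Ntrk2 had 818 CPM in the 109 granule-like nuclei with 3 or more genes and 237 CPM in the 905 with none, a ratio of 3.45 (3.15 to 3.78). The 12 astrocyte markers summed to 1051 CPM and 844 CPM in the same nuclei, a ratio of 1.24 (1.16 to 1.34), with 3 of the 12 at 0 in the first. Bdnf had 119 CPM in the 109 and 68.3 CPM in the 905, a ratio of 1.75 (1.39 to 2.18), and Bcas2 had a ratio of 0.982 (0.626 to 1.44). The same ratio of Bdnf was 1.20 (0.766 to 1.90) in GABAergic-like and 1.49 (0.719 to 3.70) in subiculum or cortex excitatory-like nuclei. Ntrk2 had 1.67 and 2.17 in those 2 classes.

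Other gene lists of the pathway had smaller median ratios than the 10 in DG granule-like nuclei. Of 15 measured further rapid transcription factors 4 were at least 1.5-fold higher in the Syn-cre-labelled library and 0 lower, with a median log2 ratio of 0.46. Nr4a2 stood at 27.5 CPM in the Syn-cre-labelled library and 9.15 CPM in the vehicle library, Nr4a3 at 15.4 CPM in the Syn-cre-labelled library and 5.30 CPM in the vehicle library, and Fosl2 at 6.55 CPM in the Syn-cre-labelled library and 3.61 CPM in the vehicle library, while Jun had a log2 ratio of -0.21 and Nfil3 one of -0.54. Of 14 feedback and signalling genes 5 were higher and 1 lower. Sik1 had 1.77, Gadd45b 1.201 and Rgs4 0.80 on the log2 ratio scale, while Arl4d had -0.50 and Sgk1, a corticosteroid-responsive kinase gene, -1.19. Of 18 late-response genes 3 were higher and 0 lower, led by Pcsk1, a prohormone convertase gene, with 10.9 CPM in the Syn-cre-labelled library and 1.204 CPM in the vehicle library. Npy and Cgref1 followed at log2 ratios of 2.17 and 1.47, and Rasgrp1 and Sorcs3 were last at -0.26 and -0.31. The vehicle values of Pcsk1, Npy and Cgref1 rest on 5, 3 and 6 UMIs, and the intervals of these genes overlap. Of 24 upstream regulators 1 was higher, the kinase gene Camk4, at a log2 ratio of 0.63. Camk2b had 0.54 and Mapk3 0.41, and the coactivator gene Crebbp had -0.26 and Creb1 -0.32. Of 8 heat shock genes 0 were higher and 1 lower, Hsph1, at -0.63. Hspa8 had -0.28, Hsp90aa1 0.12, Hspe1 0.22 and Hsp90ab1 0.52. Oligodendrocyte marker RNAs in the same nuclei summed to 524 CPM in the Syn-cre-labelled library and 1707 CPM in the vehicle library, and their part in these values was not tested.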

How the data were processed

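Per the matrix header, the authors made the deposited raw UMI counts per gene and barcode with Cell Ranger 9.0.1, and bcl2fastq 5.0.1, Seurat 4.1.0 and build GRCm39 are named in the submitters' processing notes. The sources used here do not say whether intronic or antisense reads were counted. Nuclei with at least 500 genes, 800 UMIs and under 5% mitochondrial UMIs were kept. Scrublet marked 1046 doublets in the Syn-cre-labelled library and 1332 in the vehicle library, all removed; in the vehicle library its automatic threshold marked 0.016%, so top scores at the expected rate were taken. From 2000 variable genes, without the activity genes, Bcas2, mitochondrial and sex-linked genes, 30 components and 15 neighbours gave Leiden clusters at resolution 1 (scanpy 1.11.5, leidenalg 0.10.2), named from 218 markers of 19 classes. Classes with 100 or more nuclei in both libraries were compared. Levels are CPM with exact Poisson intervals, ratios have exact conditional binomial intervals with 0.5 UMI added to the point value, and genes needed 50 UMIs over both libraries. Expected pairs assume independence given each nucleus's UMIs. edgeR 4.0.16 gave scaling factors only. The scripts were tested on simulated data: the pair ratio recovered shared nuclei in each class tried, the planned ratio for 3 or more genes did not at GABAergic levels, and reliance on the pair ratio was decided after the data had been seen. The 10 genes and the lists were chosen with earlier results of these data known. Named genes are the 10 members, the 10 genes most like them in granule-like nuclei, and the extremes of each list.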

Additional observations from a re-analysis of the deposited data

Results flagged for a closer look

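In fibroblast-like nuclei the log2 ratio of the Syn-cre-labelled over the vehicle library was -1.63 for Fos, -1.33 for Egr1 and -1.13 for Nr4a1, each of which was higher in DG granule-like nuclei. Fosb had -1.88 there, on 3 UMIs in the Syn-cre-labelled library and 29 in the vehicle library. Arc and Vgf were higher there, as in DG granule-like nuclei, on 9 and 11 UMIs in the Syn-cre-labelled library and 0 and 2 in the vehicle library. The opposite directions of Fos, Egr1, Nr4a1 and Fosb between classes were not tested, with 1 library per group. The class-wide Egr1 and Nr4a1 ratios rest on cluster 27, with 55 vehicle nuclei: in cluster 15 Egr1 had 95.8 CPM in the Syn-cre-labelled library and 81.1 CPM in the vehicle library, and Nr4a1 had 60.9 CPM in the Syn-cre-labelled library and 23.2 CPM in the vehicle library. Fos was lower in cluster 15 too, with 56.6 CPM in the Syn-cre-labelled library and 98.5 CPM in the vehicle library. The separate intervals of the libraries overlapped for each of these genes in cluster 15, which does not show equal levels. No interval of the ratio was computed there.

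Barcodes below the nuclei filter, which no comparison uses, held Nr4a1 at 141% and Vgf at 312% of the level of named neurons in the Syn-cre-labelled library. Named neurons leave out the unnamed clusters.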

How the results depend on the processing

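No paired analysis was possible because each group is 1 library. With 1 library and 4 UMIs for the scarcest gene on the vehicle side, depth limits the smaller control values. Of 267 values recomputed for whole classes under other settings, 226 stayed within the spread set for them, 40 moved and 1 reversed; the cause was not tested. In DG granule-like nuclei the median log2 ratio ran from 0.69 to 2.03, with 0.69 once free RNA was subtracted at its median estimate, which also turned Arc to -0.14 and Nr4a1 to -5.97, a value set by the floor after subtraction. The free RNA subtracted, here and below, was a share of the mean profile of all kept nuclei of the library. It was not taken from low-UMI barcodes. The count of genes higher ran from 6 to 9. Thinned nuclei gave a share of 1.28% with 3 or more genes; observed over expected was 1.498 thinned, 1.05 with 4 or more genes and 1.08 matched to detection.

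In GABAergic-like nuclei the median was 1.87 with libraries centred, and the count higher was 3 with free RNA subtracted and 4 in female nuclei. The share with 3 or more genes in the Syn-cre-labelled library was 8.13% with a looser filter, 26.0% at resolution 2, 26.9% in male nuclei, 16.9% in female nuclei and 7.14% thinned, and 5.66% in the thinned vehicle library. Observed over expected there was 0.462 in male nuclei, 0.683 in female nuclei, 1.251 thinned, 0.617 with 2 or more genes, 0.579 with 4 or more and 0.934 matched to detection.

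In oligodendrocyte-like nuclei the median was 3.90 with free RNA subtracted and 2.63 in male nuclei, and the count higher was 4 in male and 4 in female nuclei. This class was 63.2% of the kept vehicle nuclei, so its own RNA was part of the profile subtracted there. The part of free RNA in its ratios was therefore not tested by the value of 3.90. In astrocyte-like nuclei (main median 1.82, 3 genes higher) the median was 2.65 at 20 UMIs, 2.80 with no filter, 0.96 with free RNA subtracted and 0.50 in male nuclei, and the counts were 6 at 20 UMIs, 1 at 100 UMIs, 9 with no filter and 1 in male nuclei; female nuclei left no gene. In fibroblast-like nuclei the median reversed to 0.43 with no filter on UMIs, and was -2.13 with free RNA subtracted, -2.38 with a stricter filter, -2.55 at resolution 0.5, -2.66 in male nuclei, -0.46 in female nuclei and -0.35 without nuclei holding 4 or more genes; the last 2 settings each left 1 gene lower. Another scaling (TMM) shifted all genes by -0.14 on the log2 scale in oligodendrocyte-like and 0.10 in fibroblast-like nuclei.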
